A study of Homo sapiens with 14 samples.

Results

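Broad open regions were the stretches of accessible chromatin that spanned 1500 bp or more in the reference list of MM.1S or RPMI8226, which are 2 cell lines from human multiple myeloma (MM). They were chosen by width alone (end minus start as deposited, chromosomes 1 to 22) and were kept separately for each line. This gave 2293 broad regions among 70840 autosomal regions of MM.1S (3.24%, 95% interval 3.11 to 3.37) and 422 among 77385 of RPMI8226 (0.545%, 0.496 to 0.6), so 2715 of the 152771 regions in the complete lists of both lines. A further 67 MM.1S and 12 RPMI8226 regions of this width lay outside chromosomes 1 to 22 and were not used.

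The lists came from Omni-ATAC, in which a transposase cuts and tags DNA where chromatin is open. MM.1S and RPMI8226 are established plasma cell tumour lines, and the labels name no engineered allele or drug for either. Each was grown without stroma (MONO), in the upper transwell above HS5 cells (TSW) or in the lower chamber in contact with them (CO). HS5 is a human bone marrow stromal line. By the study's methods all conditions had the same incubation time, and MM cells were sorted before the assay as CD38-positive cells without CD90, a stromal surface marker. MM.1S had 3 libraries each of MONO, TSW and CO, and RPMI8226 had 1 MONO, 2 TSW and 2 CO libraries. Each line's list pooled all of its libraries, 9 for MM.1S and 5 for RPMI8226, and gave per region only its position and a support number, read as the number of libraries with the peak. It held no read counts. MONO, TSW and CO were therefore not compared, and the lists do not give depth per sample. The study's supplement does: most MM.1S libraries had more usable read pairs than any RPMI8226 library. Called width can depend on depth, and its part in the differences between the lists was not tested. Cell line, number of libraries and depth cannot be told apart between the lists.

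Open chromatin marks DNA that is free of tightly packed nucleosomes, mostly promoters, where transcription starts, and enhancers, which act on promoters from a distance. Most promoters of widely expressed genes lie in CpG islands, stretches rich in G and C that keep the CG dinucleotide which is depleted from the rest of the genome. Long open stretches are known from such promoters, from pairs of genes that start back to back, and from dense enhancer clusters of cell identity genes. In plasma cells those identity genes include the regulators of antibody secretion, and MM is a tumour of plasma cells.

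Central 200-base stretches of 4 regions show the range of sequence the broad class holds. They are the hg38 reference strand, 5′ to 3′, not sequence read from the cells, and capitals mark every CG dinucleotide. The first is from the DIPK2A promoter (chr3:143972091-143972290), the promoter region broad in both lines with the largest width in the line where it was narrower. The second is from the BASP1 promoter (chr5:17217505-17217704), the widest MM.1S broad region with no RPMI8226 region on it. The third is from the promoter of the pseudogene NBEAP4 (chr15:21261902-21262101), the widest RPMI8226 broad region with no MM.1S region on it. The fourth is from the widest distal region that was broad in both lines (chr21:6370852-6371051), on the short arm of chromosome 21.
DIPK2A: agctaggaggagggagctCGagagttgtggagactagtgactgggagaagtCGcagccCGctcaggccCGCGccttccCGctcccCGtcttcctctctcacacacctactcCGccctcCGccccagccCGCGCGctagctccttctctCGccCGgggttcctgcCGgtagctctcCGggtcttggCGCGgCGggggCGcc
BASP1: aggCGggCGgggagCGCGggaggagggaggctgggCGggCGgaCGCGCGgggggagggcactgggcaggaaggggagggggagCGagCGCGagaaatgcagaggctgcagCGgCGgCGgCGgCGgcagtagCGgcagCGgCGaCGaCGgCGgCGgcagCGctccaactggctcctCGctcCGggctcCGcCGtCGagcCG
NBEAP4: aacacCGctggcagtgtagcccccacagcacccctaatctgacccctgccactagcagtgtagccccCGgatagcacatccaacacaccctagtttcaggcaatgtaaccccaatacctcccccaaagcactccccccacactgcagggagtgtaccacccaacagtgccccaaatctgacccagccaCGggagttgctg
Chromosome 21 region: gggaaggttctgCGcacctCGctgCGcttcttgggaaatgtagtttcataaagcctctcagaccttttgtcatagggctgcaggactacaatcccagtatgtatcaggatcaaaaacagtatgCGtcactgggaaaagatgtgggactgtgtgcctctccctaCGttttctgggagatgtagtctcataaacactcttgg
The DIPK2A and BASP1 stretches held 20 and 31 CG dinucleotides, and GC contents of 70% and 79%. The NBEAP4 stretch held 3 and the chromosome 21 stretch 5, with GC contents of 59% and 48%. The promoter stretches of the coding genes are thus dense in CG, and the other 2 are not.

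Broad regions had a median width of 1714 bp in MM.1S (quartiles 1590 and 1902, widest 3745) and 1637 bp in RPMI8226 (1557 and 1774, widest 3348). They were the far end of 2 distributions that differed along their whole length: the median region was 536 bp wide in MM.1S and 363 bp in RPMI8226. A fixed width therefore took a larger slice of the MM.1S list. Broad regions held 9.16% of all bases in the MM.1S list and 2.12% of those in the RPMI8226 list. Next to the threshold, MM.1S regions of exactly 1500 bp lay at RPS6KC1, GLT8D2/HCFC2 and XYLT1, and regions 1 bp short of it at FNBP1L, DCUN1D2/TMCO3 and POLG/POLGARF. In RPMI8226, CEP95/DDX5, SS18 and CALM2 stood at 1500 bp, CCSAP and USP36 were 1 bp short and ZYG11A had 1498 bp.

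**Figure D1:**
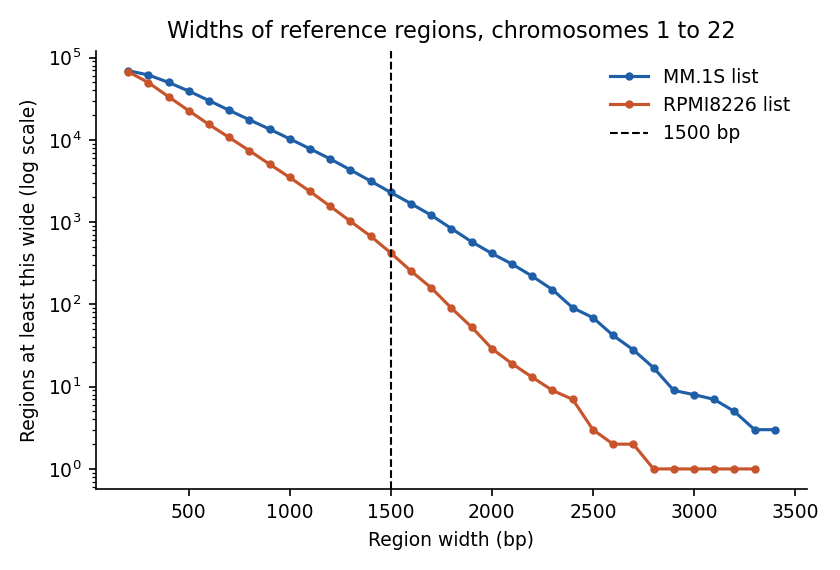
Number of autosomal regions (log axis) at least as wide as the value on the x axis, in bp, for the MM.1S and RPMI8226 lists; the dashed line is 1500 bp. At that line 2293 MM.1S and 422 RPMI8226 regions remain, and the MM.1S curve lies above the RPMI8226 curve at every width shown.

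Broad regions were mostly promoters. A region was called a promoter region when it overlapped the 2500 bp on either side of a GENCODE transcription start site, and distal otherwise. In MM.1S, 2030 of 2293 broad regions (88.5%, 87.2 to 89.8) were promoter regions, against 39.2% of all regions in the list. In RPMI8226 the count was 393 of 422 (93.1%, 90.3 to 95.2), against 36.2% of all regions. The odds of being a promoter region were 12.9 times (11.3 to 14.6) those of the other regions in MM.1S and 24.2 times (16.6 to 35.3) in RPMI8226. Most held a start site within their own bounds, 84.5% in MM.1S and 89.6% in RPMI8226, whereas 20.8% and 18% of the other regions did. Intervals are Wilson intervals for shares and Woolf intervals for odds ratios. Both describe counting error alone, since regions of 1 list are not replicates and each line had 1 list.

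A wide region meets a window more easily than a small one, so the class just below was used as a second reference. Against regions of at least 1000 bp that were not broad, the odds ratio was 2.5 (2.18 to 2.87) in MM.1S and 2.18 (1.47 to 3.22) in RPMI8226. The promoter share climbed steadily with width in MM.1S, from 23.1% under 250 bp to 86.3% from 1500 up to 1750 bp, 90.1% from 1750 up to 2000 bp and 93.3% at 2000 bp and over. In RPMI8226 the share was already 90.3% from 1250 up to 1500 bp, and the 3 broad classes had 92%, 96.8% and 93.1% with overlapping intervals. In each 250 bp class from 250 up to 1750 bp, RPMI8226 regions were more often promoters than MM.1S regions, with intervals that did not overlap. When the lists were compared at equal numbers, with 424 MM.1S regions (ties included) and 422 RPMI8226 regions, the odds ratios were 22.3 and 24.2, and the ratio between the lines was 0.921 (0.538 to 1.58).

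**Figure D2:**
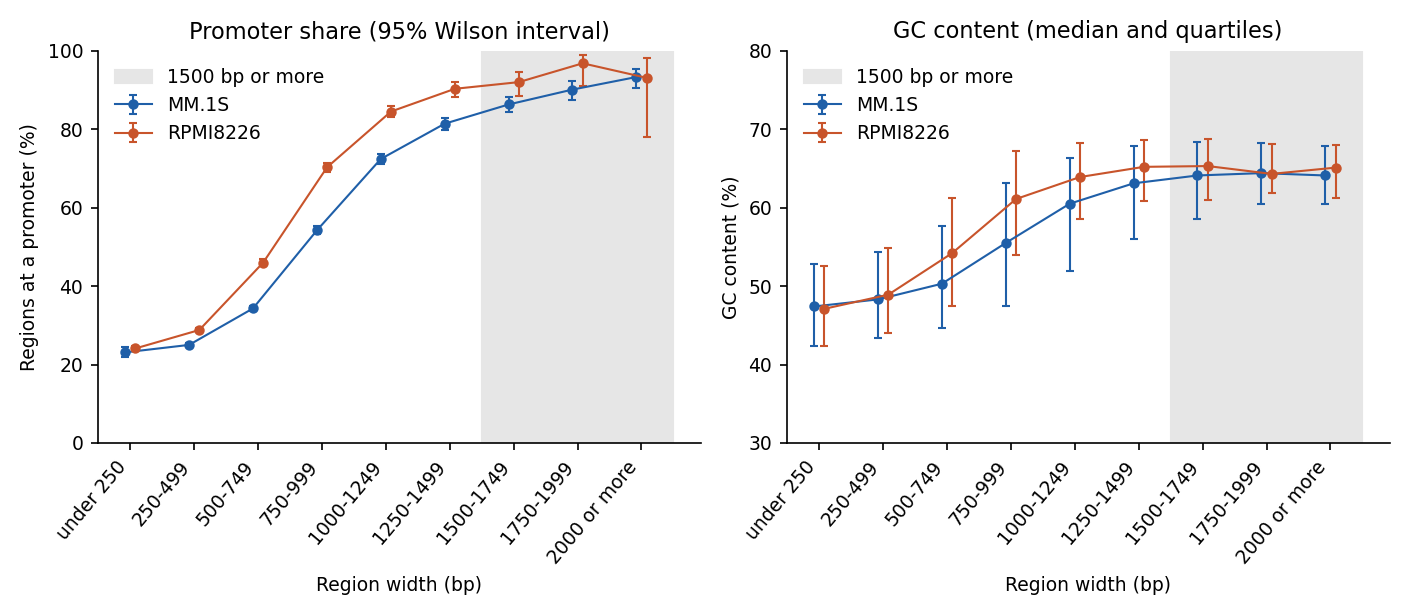
Share of regions at a promoter in percent (left, bars are 95% Wilson intervals) and GC content in percent (right, median with quartiles) by region width in bp, for each list; grey marks 1500 bp and over. Promoter share rises from 23.1% to 93.3% in MM.1S, and median GC content levels off near 64% to 65% at the broad widths.

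Broad regions were rich in G and C and in the CG dinucleotide. Median GC content was 64.2% (63.9 to 64.5) in MM.1S and 65.1% (64.2 to 65.6) in RPMI8226, against 50.5% and 50.2% in the other regions. The ratio of observed to expected CG dinucleotides had a median of 0.753 in MM.1S and 0.766 in RPMI8226, against 0.236 and 0.219. Part of this difference goes with the promoter share, so promoter and distal regions were taken apart. Broad promoter regions had a median GC content of 65% in MM.1S and 65.3% in RPMI8226, above other promoter regions at 58.6% and 57.9%. Promoter regions from 1000 bp up to the threshold were already at 63.9% and 65.3%.

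Distal broad regions differed from broad promoter regions in sequence. The 263 of MM.1S had a median GC content of 52.3% (51.1 to 53.6) and a CG ratio of 0.268, and the 29 of RPMI8226 had 60.7% (53.6 to 61.9) and 0.332. Other distal regions had 47.7% and 47.8%. Those from 1000 bp up to the threshold were at 49.4% in MM.1S and 53.4% (52.6 to 54.4) in RPMI8226, with CG ratios of 0.221 and 0.244. In RPMI8226 the GC interval of the 29 overlapped that of this class. Distal broad regions thus lay between other distal regions and broad promoter regions in GC content, with CG ratios far below those of broad promoters.

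Short motifs were counted in the central 500 bp of each region, on both strands, as a description of sequence. The GC box (GGGCGG, the letters that SP family factors bind) was present in 81.3% of MM.1S and 82.4% of RPMI8226 broad promoter regions, against 52.8% and 47.2% of all promoter regions. Several letters of lower GC content went the other way. TATAAA was in 4.48% and 4.83% of broad promoters against 10.6% and 13%, CCAAT in 29.7% and 28.5% against 39.3% and 41.9%, and the AP-1 letters TGANTCA in 4.78% and 5.09% against 13.1% and 18.8%. In distal broad regions TGANTCA was in 16.3% and 20.7%, against 23.2% and 31.8% of all distal regions. These shares were not adjusted for base composition, which moves with them.

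Most broad regions had a peak in every library of their line. In MM.1S, 2232 of 2293 (97.3%) had a support of 9, 56 had 8, 3 had 7, 1 had 6 and 1 had 5, against 52% of all regions at full support. In RPMI8226 all 422 had a support of 5, against 64.3% of all regions. Support and width come from the same peak calls, so this describes the calls and is not a separate readout. Each region of full support had a peak in every MONO, TSW and CO library of its line, but its width in each library is not known.

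A coding start site usually sat inside the region, and off centre. Counting the canonical transcript of each protein-coding gene, 1421 MM.1S broad regions held 1 start site, 233 held 2 or more and 639 held none. Each annotated gene entry counted, unnamed and readthrough genes included, and start sites at 1 position were not merged. In RPMI8226 the counts were 253, 65 and 104. In regions with 1 start site, MM.1S broad regions reached a median of 716 bp upstream (683 to 743) and 1026 bp downstream into the gene (1002 to 1045), and 946 of 1421 (66.6%, 64.1 to 69) reached farther downstream. RPMI8226 broad regions reached 745 bp upstream and 957 bp downstream, with 156 of 253 (61.7%, 55.5 to 67.4) farther downstream. The lean was not limited to broad regions: of those from 1000 bp up to the threshold with 1 start site, 63.9% (62.4 to 65.4) in MM.1S and 61.5% (59.2 to 63.7) in RPMI8226 also reached farther into the gene.

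**Figure D3:**
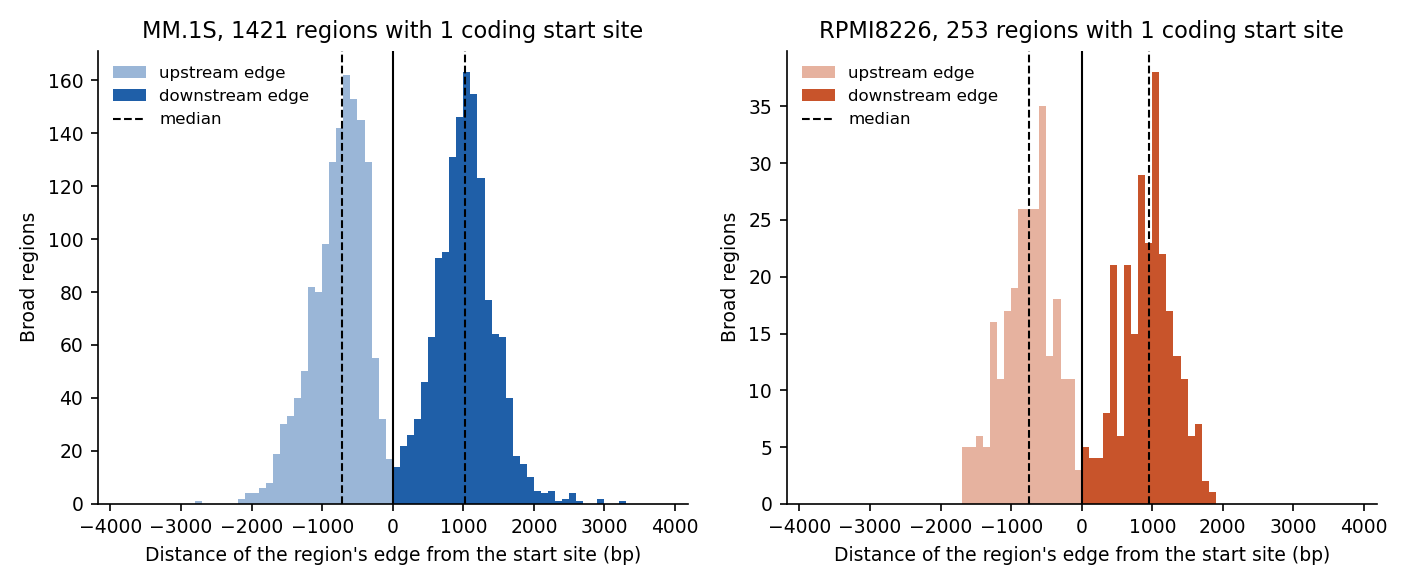
Histograms of the distance in bp from the coding start site (0, solid line) to the upstream edge (negative, pale) and downstream edge (positive, dark) of broad regions with 1 start site; dashed lines are medians. The medians lie at 716 bp upstream and 1026 bp downstream in 1421 MM.1S regions, and at 745 and 957 bp in 253 RPMI8226 regions.

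Broad regions with a coding start site held a second one more often than other regions with a start site did. A wide region meets a second start site more easily, and no reference of similar width was taken here. Among regions with a coding start site, 14.1% of MM.1S broad regions held 2 or more against 9.99% of other regions (odds ratio 1.48, 1.27 to 1.72), and in RPMI8226 it was 20.4% against 10.6% (2.16, 1.63 to 2.86). Where exactly 2 start sites lay in a region, they pointed away from each other in 165 of 215 MM.1S regions (76.7%) and 53 of 61 RPMI8226 regions (86.9%). They pointed towards each other in 13 and 3, and ran on 1 strand in 37 and 5. The region between ANKIB1 and KRIT1, which codes for a vascular junction protein, held the most, 4 start sites, in both lists (1728 bp in MM.1S, 1774 bp in RPMI8226). In MM.1S, regions with 3 included a histone cluster region on chromosome 1 (3177 bp). In RPMI8226 they included CCDC127/SDHA (1645 bp), where SDHA is a subunit of succinate dehydrogenase, and ARID4B/GGPS1 (1522 bp). Such counts exceed the named genes where further gene entries of the annotation were counted, so they are not numbers of separate named genes.

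The widest MM.1S region, 3745 bp, lay at the promoter of SNTB1, a syntrophin of the membrane cytoskeleton (chr8:120808753-120812497), and RPMI8226 had 2 regions there, the wider of 955 bp. The region at LIME1/SLC2A4RG/ZGPAT on chromosome 20 was 3533 bp wide, and LIME1 is an adaptor of lymphocyte receptor signalling. RPMI8226 had 3 regions there, the widest of 1165 bp. The third, at UMODL1, was 3401 bp and met 4 RPMI8226 regions of at most 704 bp. RPMI8226 regions together covered 34.9% of the SNTB1 region, 50.8% of the LIME1 region and 58.2% of the UMODL1 region. These MM.1S regions thus met 2 or more narrower RPMI8226 regions, which left much of their length uncovered.

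The MM.1S region at TFEB, the regulator of lysosome genes (chr6:41732641-41735782), was 3142 bp wide. RPMI8226 regions there had at most 441 bp and covered 27.2% of it. Coverage was higher at TSC22D2 (3080 and 1113 bp, 83.8%) and at ARID5A, an RNA-binding protein that stabilises IL6 mRNA (2921 and 1242 bp, 72.7%). Of the 10 widest MM.1S regions, 9 were narrow in RPMI8226. The remaining one was the chromosome 21 short-arm region, 3202 bp in MM.1S (chr21:6369351-6372552) and 3348 bp in RPMI8226 (chr21:6369312-6372659), the widest of that list. Its nearest coding start site, TPTE, was 4149001 bp away. No near-identical copy of the region was found on the assembled chromosomes, and other contigs of the reference were not counted.

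RPMI8226 showed the reverse picture: its widest regions were mostly broad in MM.1S too. DIPK2A, of the divergent protein kinase family, had 2571 bp in RPMI8226 and 2630 bp in MM.1S. PLEC, coding for the cytoskeletal linker plectin, had 2465 and 2449 bp. CLCN2/POLR2H, a chloride channel gene and an RNA polymerase subunit gene, had 2440 and 2389 bp. The edges of such regions were nearly the same in both lines, as at POLR2H (chr3:184361411-184363850 in RPMI8226, chr3:184361406-184363794 in MM.1S).

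Other regions that were very wide in both lines lay at KLHL21, an adaptor of a ubiquitin ligase (2379 bp in RPMI8226, 2813 bp in MM.1S), and at MBOAT7/TSEN34, a phospholipid acyltransferase and a tRNA splicing enzyme subunit (2329 and 2352 bp). ELF2, an ETS transcription factor, had 2298 and 2480 bp, and LNPEP, an aminopeptidase, had 2246 and 2343 bp. HERPUD1, a membrane protein of endoplasmic reticulum associated degradation, had 2278 and 2514 bp. Those of the 10 widest RPMI8226 regions that were not broad in MM.1S were GRIN1, a glutamate receptor subunit gene (2700 bp, 1235 bp in MM.1S), and NBEAP4 (2400 bp, absent).

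Across all members, 2092 of 2293 MM.1S broad regions met an RPMI8226 region, but few met a broad one. They were broad there in 347 cases (15.1%, 13.7 to 16.7), narrow in 1745 (76.1%, 74.3 to 77.8) and absent in 201 (8.77%, 7.68 to 9.99). Over all MM.1S regions those shares were 0.591%, 64% and 35.4%. Of the 422 RPMI8226 broad regions, 347 (82.2%, 78.3 to 85.6) were broad in MM.1S, 67 (15.9%) narrow and 8 (1.9%, 0.964 to 3.7) absent, and over all RPMI8226 regions the shares were 4.07%, 58.2% and 37.7%. Regions absent from the other list were rarer among broad regions than among the other regions of their list, with an odds ratio of 0.169 (0.146 to 0.195) in MM.1S and 0.0316 (0.0157 to 0.0637) in RPMI8226. A shared base pair was enough to count as present, which a wide region meets more easily. Where at least 50% of a region had to be covered, 28.7% of MM.1S broad regions counted as absent against 46.4% of the others (odds ratio 0.466, 0.426 to 0.511). In RPMI8226 it was 4.74% against 38.6% (0.079, 0.0504 to 0.124).

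The unequal shares of shared broad regions, 15.1% and 82.2%, followed from the unequal numbers of members, since the same 347 pairs were counted over both. At equal numbers, 74 of the 422 widest RPMI8226 regions (17.5%, 14.2 to 21.5) met one of the 424 widest MM.1S regions, all of at least 1994 bp. At equal numbers, regions among the widest of both lines were thus a minority of either set, although 347 of those 422 RPMI8226 regions met an MM.1S region of 1500 bp or more. The MM.1S regions on RPMI8226 broad regions had nevertheless a high rank, with a median percentile of 98.2 among the widths of their own list, and the RPMI8226 regions on MM.1S broad regions had 94.6.

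**Figure D4:**
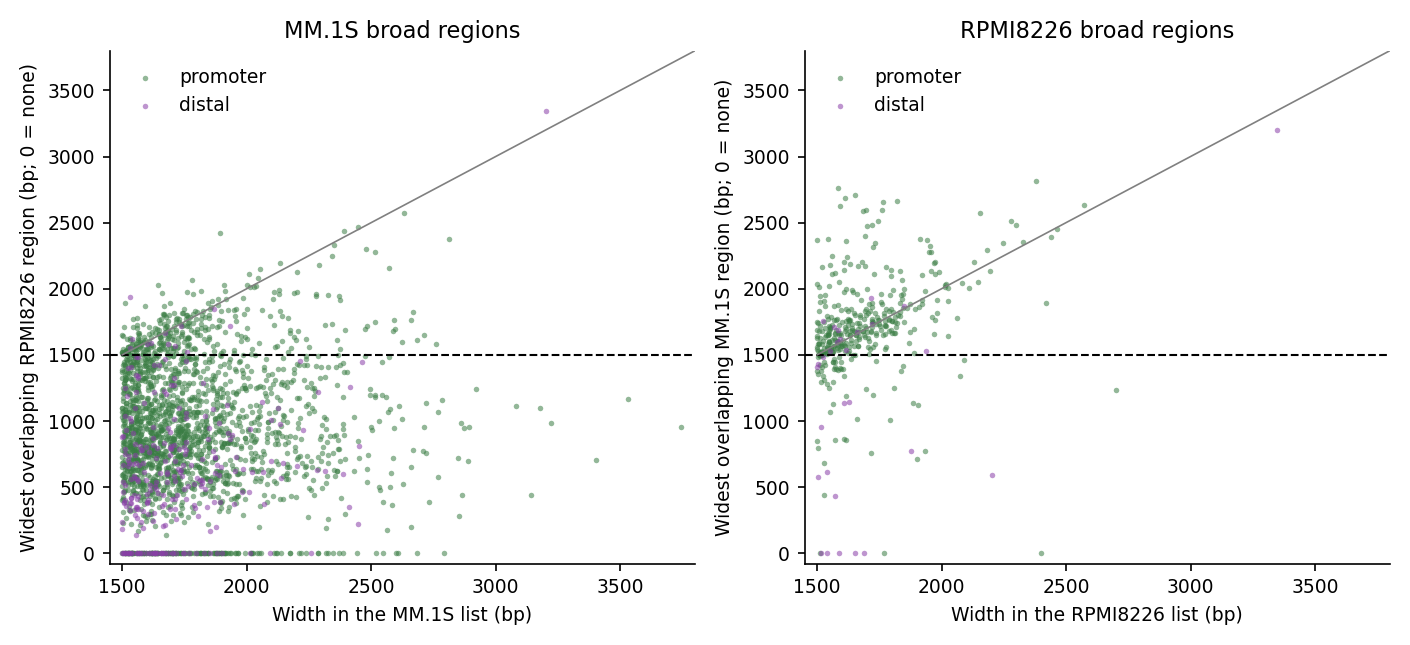
Width in bp of each broad region (x axis) against the widest region of the other list that it overlaps (y axis, 0 where there is none), for 2293 MM.1S (left) and 422 RPMI8226 (right) members; green points are promoter and purple points distal regions, the dashed line is 1500 bp and the grey line equal width. Most MM.1S points lie below the dashed line (1745 narrow, 201 absent), and most RPMI8226 points lie above it (347).

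The 1745 MM.1S broad regions that were narrow in RPMI8226 met 1 region there in 824 cases, 2 regions in 818 and 3 or more in 103. The widest RPMI8226 region on them had a median of 863 bp, and together the RPMI8226 regions covered a median of 65.6% of the MM.1S region, against 95.2% where both were broad. Joining RPMI8226 neighbours across gaps of up to 300 bp raised the share called broad from 15.1% to 26.2%. Of the 1086 such regions with 1 coding start site, the start site itself was in an RPMI8226 region in 975 (89.8%, 87.8 to 91.4). At the outer ends RPMI8226 fell short by a median of 88.5 bp upstream (79 to 104) and 127 bp downstream (99 to 142), with the larger shortfall downstream in 53.5% (50.5 to 56.4). In 512 of them that were split in 2, the gap had a median of 284 bp and lay downstream of the start site in 367 (71.7%, 67.6 to 75.4), with its middle a median of 345 bp into the gene. The outer shortfall of those 512 was a median of 42 bp upstream (30 to 58) and 38.5 bp downstream (27 to 54). In the 518 with a single RPMI8226 region it was 146 bp upstream (127 to 170) and 372 bp downstream (338 to 417). A single narrower region can leave bases out only at the ends, and 2 regions leave a gap inside, so that part follows from the sorting. Split promoters were covered nearly to both ends, and those with a single region fell shorter downstream than upstream. All MM.1S broad regions with 1 start site themselves reached farther downstream, with medians of 1026 bp against 716 bp upstream. A narrower region on the start site therefore has more to leave out downstream. The downstream lean of gaps and ends was not tested apart from that.

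The 67 RPMI8226 broad regions that were narrow in MM.1S were closer to the threshold, with a median MM.1S width of 1312 bp and 80.8% of their bases covered. A single MM.1S region lay on 62 of them. Clear exceptions were GRIN1, with 35.9% covered, PTP4A3 (2203 bp, 591 bp in MM.1S), a phosphatase gene whose start site was 9100 bp away, and MIB2/MMP23B (1933 bp, 776 bp in MM.1S). RARG, a retinoic acid receptor gene, had 2091 bp in RPMI8226 and 1464 bp in MM.1S.

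The 201 MM.1S broad regions with no RPMI8226 region lay a median of 17608 bp from the nearest one, and 153 had one within 50000 bp. The widest was the BASP1 promoter (chr5:17216209-17219001, 2793 bp, GC content 64.6%), a gene for a membrane-bound signalling protein. ZNF804A, a zinc finger gene (2606 bp), SOX4, a transcription factor of lymphoid progenitors (chr6:21593453-21595999, 2547 bp), and CDH2, coding for N-cadherin (2521 bp), followed. HOXB7/HOXB8 (2445 bp) and SLC23A2, a vitamin C transporter gene (2388 bp), completed the coding promoters among the 8 widest.

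The other 2 of those 8 lay at immunoglobulin genes. One covered the lambda joining and constant segments IGLJ1, IGLJ2 and IGLC1 (chr22:22894674-22897356, 2683 bp). The other was at the heavy chain constant gene IGHM and a group of microRNA genes (chr14:105857938-105860538, 2601 bp). Their CG ratios, 0.156 and 0.157, were far below the MM.1S broad median of 0.753, whereas BASP1 had 0.753 and SOX4 0.946. Immunoglobulin loci are rearranged in plasma cells, and the position of a region there is that of the reference genome.

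The 8 RPMI8226 broad regions with no MM.1S region included no promoter of a coding gene. Those at a promoter were NBEAP4 (chr15:21260802-21263201, 2400 bp), PPP4R2P3 (chr3:195999119-196000886, 1768 bp), both pseudogenes, and the noncoding gene LINC01132 (chr1:234724054-234725567, 1514 bp). The other 5 were distal, and the nearest coding start sites of 4 of them were those of ZFP36L2 (1654 bp wide, 31070 bp away), CACFD1 (1588 bp, 6239 bp), MANEA (1542 bp, 57298 bp) and CDKN2AIPNL (1518 bp, 53449 bp). Their CG ratios ran from 0.124 to 0.402, all below the RPMI8226 broad median of 0.766.

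Distal broad regions were more often specific to a list than broad promoters. In MM.1S, 43 of 263 distal (16.3%, 12.4 to 21.3) and 158 of 2030 promoter regions (7.78%, 6.7 to 9.03) were absent from RPMI8226, an odds ratio of 2.32 (1.61 to 3.34). Over all MM.1S regions 40.1% of distal and 28.1% of promoter regions were absent. In RPMI8226, 5 of 29 distal and 3 of 393 promoter regions (0.763%) were absent from MM.1S (odds ratio 27.1, 6.11 to 120), against 45.9% and 23.4% over all regions. The promoter share was 96.3% (334 of 347) where both lines were broad, 88.1% in MM.1S broad regions narrow in RPMI8226 (odds ratio 3.46, 1.95 to 6.13) and 78.6% in those absent.

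Wide distal regions of MM.1S included one 8525 bp from the start site of SDC1, which codes for the plasma cell surface proteoglycan CD138 (chr2:20212478-20214863, 2386 bp). RPMI8226 had 3 regions there, the widest of 601 bp. A distal region 4238 bp from the SOX4 start site (2413 bp) met a single RPMI8226 region of 348 bp, so both wide MM.1S regions at SOX4 were narrow or missing in RPMI8226. Others lay near ST14, a membrane protease gene (2453 bp, 810 bp in RPMI8226), INPP4A, a phosphoinositide phosphatase gene (2446 and 218 bp), TBL1XR1, a corepressor subunit gene (2417 and 1258 bp), and KDM7A, a histone demethylase gene (2316 and 621 bp). A region of 2464 bp on chromosome 4, 680732 bp from CWH43, stood apart with a GC content of 23.4%, the lowest of the MM.1S members.

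Several of the wide distal regions of RPMI8226 were broad in MM.1S as well. They lay near SRP14, a subunit of the signal recognition particle (1937 bp, 1532 bp in MM.1S), DHX37, an RNA helicase gene (1848 and 1867 bp), STK17B, a lymphocyte kinase gene (1721 and 1737 bp), and TEX19 (1717 and 1933 bp). Of all 29, 13 were broad in MM.1S (44.8%, 28.4 to 62.5), whereas 13 of the 263 MM.1S distal regions were broad in RPMI8226 (4.94%, 2.91 to 8.27), the same 13 pairs over unequal numbers.

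Broad regions were spread over all autosomes. The share of a chromosome's regions that were broad ran from 2.52% on chromosome 7 to 4.24% on chromosome 17 in MM.1S, and from 0.285% on chromosome 6 to 0.862% on chromosome 16 in RPMI8226. Few lay together: 79 MM.1S (3.45%) and 8 RPMI8226 broad regions (1.9%) had another within 10000 bp. Near-identical copies elsewhere on the assembled chromosomes, which affect how reads are placed, were found for 35 (1.53%) and 7 (1.66%).

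At the level of genes, 2266 of 19103 autosomal protein-coding genes (11.9%) had a broad region at the promoter in MM.1S and 461 (2.41%) in RPMI8226, and 406 had one in both. Of the 2266 MM.1S genes, 1765 (77.9%) had a narrow RPMI8226 promoter region, and 95 (4.19%) had none. Of the 461 RPMI8226 genes, 55 had a narrow MM.1S region and none lacked one. The lists that follow were drawn up by hand with earlier results of these data known. Their counts are a description beside the 11.9% and 2.41% of all coding genes, without a test. Paired widths after a gene are those of the widest region at any of its promoters, in MM.1S and then in RPMI8226. The regions of such a pair need not overlap.

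The markers of the lines were checked first. All 20 plasma cell and myeloma surface or marker genes had an open region of some width at the promoter in MM.1S and 18 in RPMI8226, against 77.9% and 73% of all coding genes. Broad ones were TXNDC5, a protein disulfide isomerase family gene (2300 bp in MM.1S, 884 bp in RPMI8226), CXCR4, the receptor that homes plasma cells to marrow (1871 and 1025 bp), ITGA4, an integrin subunit (1816 and 605 bp), and SDC1 (1543 and 1362 bp). CD38 had 1239 and 1225 bp and TNFRSF17, coding for BCMA, 964 and 407 bp. Of 26 stromal marker genes, 15 had a region in MM.1S and 11 in RPMI8226. THY1, which codes for CD90, COL3A1, LUM and FAP had none in either list, COL1A1 had 1189 and 617 bp, and the broad ones were TWIST1 (1823 bp, none in RPMI8226) and ACTA2 (1694 and 621 bp). Both had a support of 9 in MM.1S, which does not tell in which libraries they were wide. The paper reports a small remainder of HS5 cells among MM cells sorted from the lower chamber. Its part in these regions was not tested.

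Of 20 regulators of plasma cell identity, 5 had a broad promoter region in MM.1S (25%, 11.2 to 46.9) and 1 in RPMI8226 (5%, 0.888 to 23.6), beside 11.9% and 2.41% of all coding genes. RUNX1, a haematopoietic transcription factor, had 2451 bp in MM.1S and 722 bp in RPMI8226, and ELL2, an elongation factor that drives antibody secretion, had 1652 and 1738 bp. FOXP1 (1816 and 554 bp), ZNF215 (1809 and 935 bp) and ZBTB20 (1580 and 1107 bp) were broad in MM.1S. IRF4, on which MM cells depend, had 1387 and 901 bp, and PRDM1, the master regulator of secretory differentiation, had 1155 and 622 bp. Among 20 B cell programme genes, CIITA, the activator of HLA class II genes (2533 and 1003 bp), BACH2 (1935 and 836 bp) and BCL6 (1813 and 461 bp) were broad in MM.1S, and no gene was in RPMI8226. The shares were 15% (5.24 to 36) and 0% (0 to 16.1), and both intervals hold the share of all coding genes.

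Some secretory and stress genes were broad in both lines, beside 406 of all 19103 coding genes. In MM.1S the secretory list had 16.7% (7.34 to 33.6) broad and the stress list 27.5% (16.1 to 42.8). In RPMI8226 the shares were 6.67% (1.85 to 21.3) and 12.5% (5.46 to 26.1). Of 30 endoplasmic reticulum folding and secretion genes, 5 were broad in MM.1S and 2 in RPMI8226: HERPUD1 and the chaperone gene HYOU1 (1631 and 1706 bp) in both, HSP90B1 (1615 and 1127 bp), SEC24D (1628 and 500 bp) and SDF2L1 (1595 and 865 bp) in MM.1S. Of 40 immediate early and stress response genes, 11 were broad in MM.1S and 5 in RPMI8226, with 4 in both. Those 4 were CSRNP1 (2105 and 1923 bp), ATF3 (1799 and 1698 bp), EGR1 (1652 and 1535 bp) and EGR3 (1749 and 1530 bp), all fast-responding transcription factor genes. The growth arrest gene GADD45B (2731 and 710 bp) and CEBPB, a factor of inflammatory signalling (2104 and 436 bp), had large differences. NFKBIA, the inhibitor of NF-kB, was above the threshold in RPMI8226 with 1567 bp and below it in MM.1S with 1470 bp.

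Of 30 myeloma oncogenes and survival genes, 9 had a broad promoter region in MM.1S (30%, 16.7 to 47.9) and none in RPMI8226 (0 to 11.4). All coding genes had 11.9% and 2.41%, and the RPMI8226 interval holds the latter. They included the NF-kB subunit genes NFKB1 (2006 and 925 bp) and NFKB2 (1942 and 994 bp), MAF, a translocation partner in MM (1845 and 514 bp), and the apoptosis inhibitor BCL2 (1697 and 596 bp). MYC was just short of the threshold in both lines, at 1448 and 1444 bp. Of 29 chromatin and transcription regulators, 9 were broad in MM.1S (31%, 17.3 to 49.2) and none in RPMI8226 (0 to 11.7, which also holds 2.41%). SMARCA2, a remodelling ATPase gene (1982 and 881 bp), KMT2E (1948 and 825 bp), the histone methyltransferase gene KMT2A (1926 and 1139 bp), and HDAC7, a histone deacetylase gene (1902 and 851 bp), were the widest.

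Housekeeping families were mixed. Of 40 cytosolic ribosomal protein genes, 9 were broad in MM.1S and 2 in RPMI8226. RPL7 was broad in both (2482 and 1721 bp), as was RPLP1 (1506 and 1519 bp), whereas RPL19 (2258 and 475 bp) and RPL3 (2165 and 585 bp) were broad in MM.1S. Of 32 proteasome subunit genes, 2 were broad in MM.1S and 1 in RPMI8226. The immunoproteasome subunit gene PSMB9 had 1926 and 1841 bp, and PSMA1 had 1625 and 1387 bp. Of 20 noncoding RNA genes, 5 and 2 were broad. MALAT1 had 1917 and 1923 bp, and NEAT1 had 1457 bp in MM.1S and 1736 bp in RPMI8226. PVT1, next to MYC, had 1799 and 1159 bp.

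Of 69 replication-dependent histone genes, 15 were broad in MM.1S and 6 in RPMI8226. They sit in dense clusters, so several shared 1 region: H2AC20, H2AC21 and H2BC21 lay at the 3177 bp MM.1S region (1098 bp in RPMI8226), and the divergent pairs H2AC12/H2BC12 and H2AC6/H2BC4 were broad in both lines, with 1755 and 1800 bp and with 1791 and 1542 bp. The shared region of H1-5 and H2AC16, 1618 bp in MM.1S, had no RPMI8226 counterpart. Of 20 HOX cluster genes, 1 was broad in MM.1S (HOXB7, 2445 bp) and none in RPMI8226. The widest RPMI8226 region at HOXB7 promoters, 448 bp, did not overlap the 2445 bp region. Of 23 liver, neuron and muscle genes none was broad in MM.1S and 1 in RPMI8226, which was GRIN1.

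**Figure D5:**
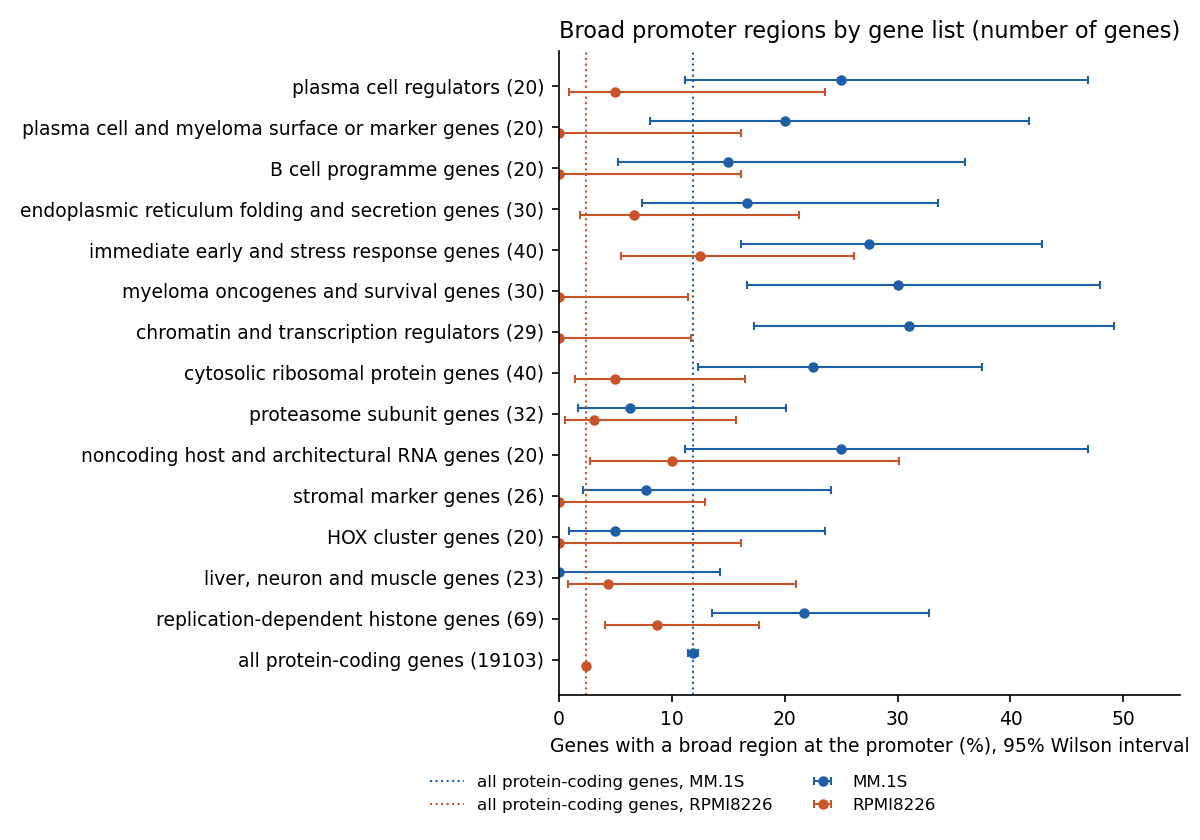
Percent of the genes on each list (number of genes in parentheses) that had a region of 1500 bp or more at the promoter, with 95% Wilson intervals, in MM.1S (blue) and RPMI8226 (orange); dotted lines are the 11.9% and 2.41% of all protein-coding genes. In MM.1S the lists run from 0 of 23 liver, neuron and muscle genes to 9 of 29 chromatin and transcription regulators, and in RPMI8226 from 0 to 5 of 40 immediate early and stress response genes.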

How the data were processed

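Omni-ATAC libraries of MM.1S and RPMI8226 were assigned to line and condition by their titles. As the study's methods state, the authors aligned reads to hg38 with Bowtie2, dropped reads placed at several positions, called peaks per library with MACS3, and kept as reference peaks those present in at least 3 libraries of a line. How peak edges were merged across libraries is not given in the sources used here. The deposited lists gave chromosome, start, end and an unnamed whole number. This number is a count other than reads, and it was read as the support, the number of libraries with the peak, since it ran from 3 to the number of libraries of the line. Starts were read as counted from 0 and are printed counted from 1.

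Regions were annotated with GENCODE release 44 start sites and the hg38 sequence (the study used RefSeq), in Python 3.11.15 with pandas 2.3.3, NumPy 2.4.6 and SciPy 1.17.1. Near-identical copies (at least 50% of a region at 95% identity or more) were searched with minimap2 2.31. They were counted on the assembled chromosomes and the mitochondrial genome alone, without unplaced or alternate contigs. Regions of the lists overlapped when they shared 1 bp. Shares have 95% Wilson intervals, odds ratios Woolf intervals and medians exact order-statistic intervals, and no p was computed. The functions were tested on simulated data. Members and gene lists were chosen with earlier results of these data known. Regions were named by rule: the 10 widest per list, the 10 with the largest smaller width among those broad in both, the 8 widest absent from the other list, the 8 widest distal, the 5 with most coding start sites, the 3 on either side of 1500 bp, and up to 6 genes per gene list. A few further regions were named after their values were seen, namely the widest broad in RPMI8226 and narrow in MM.1S, and some listed genes beyond the 6. A few named items are not reported here. Distal regions carry the name of the nearest coding start site. The lists hold no read counts, so depth per sample, and the precision it would give, are unknown from them. The study's supplement reports read pairs per library, which were not used in any calculation here. Alternatives were other widths, equal numbers of regions, full support, other promoter windows, coding transcripts, other overlaps, and joined neighbours.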

Additional observations from a re-analysis of the deposited data

Results flagged for a closer look

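Measures in which the interval of the ratio between the lines excluded 1 are given here as the MM.1S odds ratio over the RPMI8226 odds ratio. These intervals treat the lists as independent. Many regions of the lists lie at the same loci, and absence is defined by the other list, so the intervals are approximate. For promoter regions, broad against other, it was 0.531 (95% interval 0.357 to 0.792). For regions with a coding start site that held 2 or more, it was 0.685 (0.497 to 0.944). At equal numbers of the widest regions (424 and 422) these became 0.921 (0.538 to 1.58) and 0.744 (0.492 to 1.13), so both intervals then held 1. For absence from the other list, broad against other regions, the ratio was 5.34 (2.61 to 10.9), and within promoter regions it was 8.05 (2.55 to 25.4). For absence of distal against promoter broad regions it was 0.0855 (0.0184 to 0.396), which rests on 5 distal and 3 promoter regions of RPMI8226. At equal numbers these 3 were 4.84 (2.21 to 10.6), 8.33 (2.52 to 27.5) and 0.0541 (0.00771 to 0.379). Line, library number and depth cannot be told apart in these differences, and no interval covers variation between cultures.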

How the results depend on the processing

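The promoter odds ratio of broad regions stayed above 1 under every alternative run, from 2.5 to 22.3 in MM.1S and from 2.18 to 31.5 in RPMI8226. At 1000 bp, MM.1S had 10281 regions, with 78.4% at promoters, a median GC content of 62.3%, 93.9% in every library, and 29.6% broad, 57% narrow and 13.3% absent in RPMI8226; 43.1% of coding genes and 247 listed genes (80 at 1500 bp) had one. RPMI8226 had 3492 regions there, with 87% at promoters, 87.2% broad, 7.93% narrow and 4.87% absent in MM.1S, 18.2% of coding genes and 93 listed genes (20 at 1500 bp). At 2000 bp, MM.1S had 416 regions, 93.3% at promoters, 99% in every library, 4.81% broad and 87.3% narrow, 2.35% of genes and 16 listed genes, and RPMI8226 had 29 regions, 69% broad and 27.6% narrow, 0.147% of genes and 2 listed genes. With the 422 widest regions of each list, MM.1S had 424 with ties, 93.4% at promoters, 99.1% in every library, 17.5% broad, 2.42% of genes and 16 listed genes, and RPMI8226 had 17.5% broad and 80.6% narrow. With start sites of coding transcripts alone, the promoter share was 80.8% and 83.6%. The central 500 bp had median GC contents of 67.8% and 68.3%. Where at least 50% of a region had to be covered, 56.1% of MM.1S broad regions were narrow and 28.7% absent in RPMI8226, and 4.74% of RPMI8226 broad regions were absent from MM.1S. With gaps of up to 300 bp joined, MM.1S had 26.2% broad and 65% narrow. With the other list called broad by the same rank, MM.1S had 35% broad and 56.3% narrow, and RPMI8226 17.5% and 80.6%.

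No paired analysis was possible because each list pools its libraries and carries no value per library; no replicate was left out for the same reason. The reference marks no repeats, so the alternative without them covered undetermined bases alone. Depth and the merging of peaks, on which width depends, were not examined.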
